A study of Homo sapiens with 20 samples.

Results

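The sphingolipid and glycosphingolipid synthesis genes described here are SPTLC1, SPTLC2, SPTLC3, CERS2, CERS5, CERS6, UGCG, SGMS2, SPHK1 and A4GALT. They were taken by gene symbol, 10 of the 60271 genes in the deposited tables, and all 10 passed the filter on low counts that left 16522 genes for testing. RNA was sequenced from MDA-MB-468, a triple negative epithelial breast cancer line with an amplified EGFR gene, after serum starvation. The groups were an untreated control and cells given 50 ng/mL epidermal growth factor (EGF) for 12, 24, 48 or 72 h, with 4 biological replicates in each and 20 libraries in all. A4GALT and SPHK1 passed the filter through EGF libraries. On the 4 control libraries alone, with as few as 4 and 5 counts, neither would have passed. Per the sample labels, control and EGF cultures shared 1 seeding and 1 harvest, and EGF was added earlier or later before that harvest. EGF drives these cells towards a mesenchymal state, and the time course addresses how transcription of lipid enzymes moves along that way. The cells are 1 established line, so the values describe that line only.

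Sphingolipids are built from serine and an acyl-CoA by serine palmitoyltransferase, whose subunits are encoded by SPTLC1, SPTLC2 and SPTLC3. Ceramide synthases (CERS genes) join a fatty acid to the sphingoid base, and each synthase prefers its own range of chain lengths. Ceramide is then passed to sphingomyelin by the sphingomyelin synthases, to glucosylceramide by UGCG, the entry point of glycosphingolipids, or is broken down to sphingosine, which SPHK1 phosphorylates to the signaling lipid sphingosine 1-phosphate. A4GALT adds a galactose to lactosylceramide and so makes globotriaosylceramide, the first lipid of the globo-series. In epithelial cancers, globo- and ganglio-series lipids and sphingosine 1-phosphate are studied for their part in adhesion, migration and EMT.

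Positions are given on GRCh38 from GENCODE release 29, and levels are per whole gene. The exon lengths behind values per kb are merged exons of that release, UTRs included. SPTLC1 (ENSG00000090054) lies on the minus strand at chr9:92000087-92115384, SPTLC2 (ENSG00000100596) on the minus strand at chr14:77505997-77616773 and SPTLC3 (ENSG00000172296) on the plus strand at chr20:13008979-13169103. CERS2 (ENSG00000143418) lies on the minus strand at chr1:150960583-150975004, CERS5 (ENSG00000139624) on the minus strand at chr12:50129306-50167533 and CERS6 (ENSG00000172292) on the plus strand at chr2:168455862-168775137. UGCG (ENSG00000148154) lies on the plus strand at chr9:111896766-111935369, SGMS2 (ENSG00000164023) on the plus strand at chr4:107824563-107915047, SPHK1 (ENSG00000176170) on the plus strand at chr17:76376584-76387860 and A4GALT (ENSG00000128274) on the minus strand at chr22:42692112-42721298. Part of the exon sequence of 4 genes is also annotated as exon on the other strand, namely 41.4% of CERS6 (by CERS6-AS1), 37.2% of CERS2 (by SETDB1 and AL590133.2), 7.86% of SGMS2 (by AC096564.1) and 1.34% of SPHK1 (by PRPSAP1). Whether the counting used strand is not given in the sources used here, so for these 4 genes reads of the partner may be included.

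RefSeq start site windows, running from 250 bases before to 50 bases after a start on GRCh38.p14, were listed for 8 of the 10 genes, all but SPTLC3 and CERS2. For each of the 3 members with the widest range of levels, A4GALT, SPHK1 and UGCG, 1 window is printed. It is joined by 1 of SGMS2, which stands for sphingomyelin synthesis at the same branch as UGCG. Other windows of A4GALT, SPHK1 and SGMS2 were listed but are not printed. Capitals mark every match, on either strand, to the letters of 8 motifs, with AP-1 searched as TGANTCA, the cyclic AMP response element (CRE) as TGACGTCA, ETS as CCGGAAG, the GC box as GGGCGG, the CCAAT box by the letters of its name, the E-box as CACGTG, EGR1 as GCGTGGGCG and the TATA box as TATAAA. The sequences run 5′ to 3′ in the direction of the gene.
UGCG, chr9:111896564-111896863, plus strand: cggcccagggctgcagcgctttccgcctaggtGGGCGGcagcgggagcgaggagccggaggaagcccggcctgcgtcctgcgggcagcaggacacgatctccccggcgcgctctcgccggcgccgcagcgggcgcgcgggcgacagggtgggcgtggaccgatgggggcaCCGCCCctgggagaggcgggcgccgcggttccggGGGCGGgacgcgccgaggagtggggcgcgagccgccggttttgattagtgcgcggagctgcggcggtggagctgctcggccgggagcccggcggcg
A4GALT, chr22:42720821-42721120, minus strand: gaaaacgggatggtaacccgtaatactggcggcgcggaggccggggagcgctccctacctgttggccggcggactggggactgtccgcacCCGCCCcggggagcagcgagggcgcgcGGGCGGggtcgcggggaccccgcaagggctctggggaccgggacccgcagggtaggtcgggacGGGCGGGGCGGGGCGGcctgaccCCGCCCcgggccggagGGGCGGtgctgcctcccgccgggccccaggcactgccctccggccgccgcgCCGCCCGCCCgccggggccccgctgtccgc
SPHK1, chr17:76382954-76383253, plus strand: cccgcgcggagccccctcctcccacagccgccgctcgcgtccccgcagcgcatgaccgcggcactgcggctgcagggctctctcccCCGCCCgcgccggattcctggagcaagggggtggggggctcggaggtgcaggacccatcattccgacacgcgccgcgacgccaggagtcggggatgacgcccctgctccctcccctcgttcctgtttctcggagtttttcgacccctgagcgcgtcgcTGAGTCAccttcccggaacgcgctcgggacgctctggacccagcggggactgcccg
SGMS2, chr4:107824682-107824981, plus strand: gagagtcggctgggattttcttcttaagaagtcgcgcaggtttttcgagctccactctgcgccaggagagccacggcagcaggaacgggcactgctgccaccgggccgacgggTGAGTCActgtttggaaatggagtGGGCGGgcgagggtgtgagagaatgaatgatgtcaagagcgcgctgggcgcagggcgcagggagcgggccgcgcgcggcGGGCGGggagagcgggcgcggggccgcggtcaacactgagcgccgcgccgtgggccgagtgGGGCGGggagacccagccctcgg

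The printed A4GALT window held 9 GC boxes, some of which overlap, and the UGCG window 3. The printed SPHK1 window held an AP-1 match that begins 6 bases before the start site and 1 GC box. The printed SGMS2 window held an AP-1 match that begins 137 bases before the start and 3 GC boxes. Among all 35116 windows, 7.71% held an AP-1 match and 45.0% a GC box, while the shares were 34.6% for the CCAAT box, 11.5% for the TATA box, 10.3% for ETS, 7.26% for the E-box, 1.85% for CRE and 0.795% for EGR1. AP-1 letters were also found in another window of SGMS2 and another of SPHK1. The remaining windows held no AP-1 match. That of SPHK1 held 2 GC boxes, that of SGMS2 1 CCAAT box and 1 TATA box, and that of A4GALT 1 GC box and 3 CCAAT boxes. These matches describe letters in short windows and say nothing about binding.

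The libraries held 15611961 to 25856953 counts, with a median of 20398047. Levels are given as CPM, the count scaled by the library total and its TMM factor, on which scale 1 count was worth 0.0380 to 0.0641 CPM. The TMM factors lay between 0.862 and 0.898 at 12 h and between 1.06 and 1.08 in the control. Mitochondrial genes held 7.69% to 11.3% of counts at 12 h, 9.03% to 12.6% in the control and 11.1% to 13.8% at 24 h. They held 12.3% to 16.4% at 72 h. At 48 h replicate 2 was at 16.9% and the other libraries at 9.83% to 12.1%. The epithelial markers EPCAM, CDH1, KRT8, KRT18 and KRT19 averaged 181, 127, 146, 788 and 380 CPM in the control. They averaged 215, 181, 729, 5136 and 815 CPM at 12 h and 144, 90.6, 240, 1441 and 420 CPM at 72 h. EGFR averaged 3474 CPM in the control. Of the receptors low in triple negative cells, ESR1 and ERBB2 averaged 5.03 and 21.5 CPM in the control. PGR had 0 counts in all 20 libraries, which allows up to 0.192 CPM. Markers of leukocytes, endothelium and fibroblasts (PTPRC, PECAM1 and COL1A1) summed to 6.82 to 9.996 CPM in the control, 9.45 to 10.9 at 12 h and 16.4 to 17.8 at 72 h (12.1 to 15.8 and 14.5 to 17.7 at the times between), with none of the 3 at 0 in every library. Most of the sum was COL1A1, which averaged 6.18 CPM in the control, 9.74 at 12 h and 13.9 at 72 h. PECAM1 averaged 2.31, 0.374 and 3.08 CPM and PTPRC 0.0988, 0.0120 and 0.184 CPM, so both were lower at 12 h. The part of these 3 markers, and that of the mitochondrial share, in the changes of the sphingolipid genes was not tested. The mesenchymal marker VIM averaged 20.3 CPM in the control and 204, 383, 104 and 165 CPM at 12, 24, 48 and 72 h.

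At 12 h of EGF, 8 of the 10 genes were higher than in the untreated control and 1, SPTLC3, was lower, while SPTLC1 did not pass the test (quasi-likelihood test of edgeR, p adjusted over the 16522 genes, threshold 0.05). Over all genes tested, 32.9% were higher and 36.5% lower at that time. The median log2 fold change was 0.89 over the 10 genes and -0.054 over all genes. The 8 include A4GALT and SPHK1, which passed the filter only through EGF libraries. Both are also among the genes higher at 24 and 72 h, and A4GALT at 48 h. At 24 h, 5 genes were higher (CERS2, CERS5, UGCG, SPHK1 and A4GALT) and 0 lower, against 29.2% and 29.6% of all genes, and the medians were 0.36 and -0.0071. With library size as the only scaling, the split at 24 h was 5 higher and 3 lower. With factors per gene taken from the deposited normalized values, or with at least 10 counts asked of every library, 3 were higher and 0 lower, as A4GALT and SPHK1 then dropped out of the test.

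At 48 h, 3 genes were higher (SPTLC3, CERS5 and A4GALT) and 3 lower (SPTLC1, SPTLC2 and CERS6), against 24.0% and 21.8% of all genes, and the medians were 0.20 and 0.0099. With factors per gene, 0 were higher and the 3 lower were SPTLC2, CERS6 and CERS2. At 72 h, 6 were higher (CERS2, CERS5, UGCG, SGMS2, SPHK1 and A4GALT) and 2 lower (SPTLC3 and CERS6), against 30.6% and 31.0%, with medians of 0.30 and -0.0090. This count of 8 fell to 5 without control replicate 4, EGF 72 h replicate 1 or EGF 72 h replicate 3. With library size as the only scaling the split at 72 h was 5 higher and 3 lower, and with DESeq2's size factors it was 6 higher and 1 lower. It was 5 higher and 0 lower with no filter beyond 1 count, 4 and 0 with at least 10 counts in every library, and 2 and 1 with factors per gene. How many of all genes were called under these settings is given in the closing section. The libraries were bulk samples, so that a change in the share of cells that express a gene and a change in RNA per cell cannot be told apart.

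**Figure D1:**
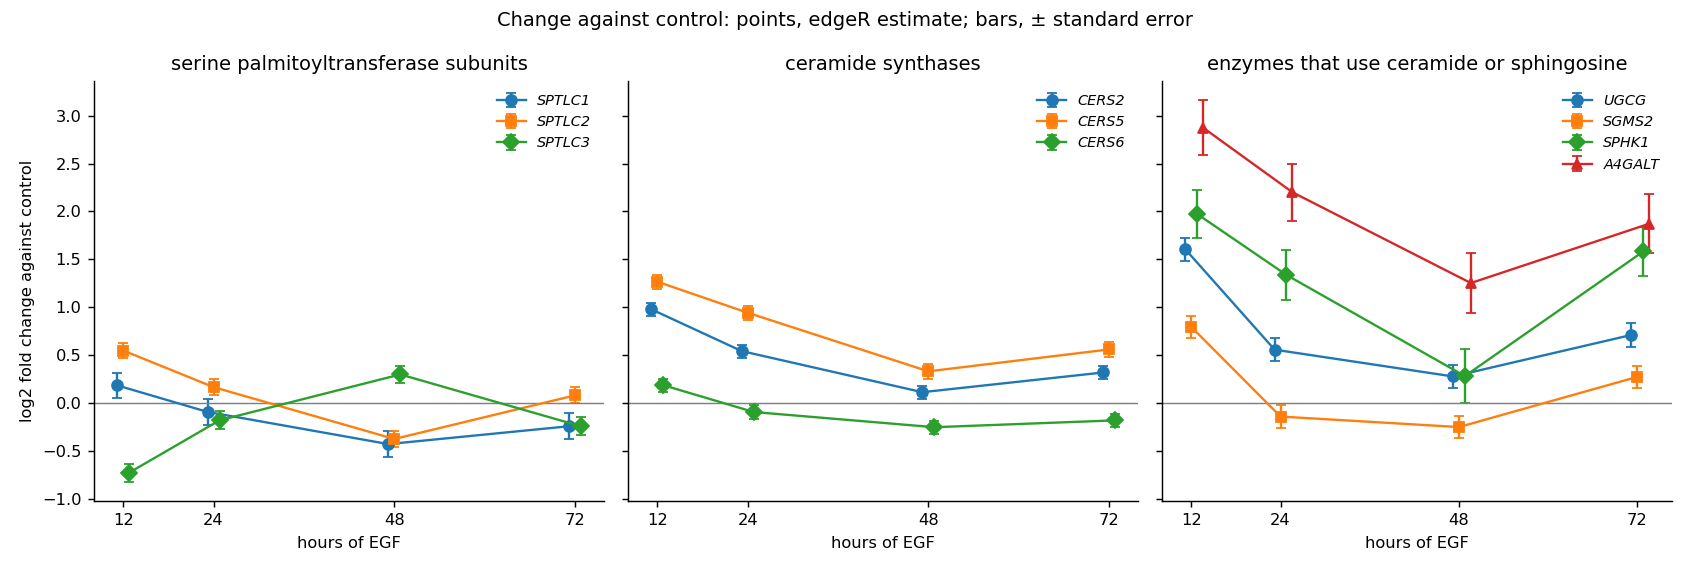
Log2 fold change against the untreated control (y axis) at the 4 times after EGF (x axis, hours) for the subunits of serine palmitoyltransferase, the ceramide synthases and the enzymes that use ceramide, sphingosine or lactosylceramide; points are edgeR estimates and bars ± 1 standard error. A4GALT starts highest at 2.87, and SPTLC3 lies below 0 at 12 h (-0.73) and above it at 48 h (0.30).

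Between 12 and 48 h all 10 genes passed the test. SPTLC3 was higher at 48 h than at 12 h and the other 9 were lower, against 37.7% of all genes higher and 32.5% lower in that comparison. Those 9 had their highest group mean at 12 h and SPTLC3 its lowest, so the count of 10 follows in part from the times compared. With library size as the only scaling, CERS6 missed the threshold here (-0.14, edgeR adjusted p = 0.0784). From 12 to 24 h, 8 were lower and 1 higher (SPTLC3), against 25.9% and 27.9% of all genes, and from 24 to 48 h, 6 were lower and 1 higher (SPTLC3), against 24.3% and 25.9%. From 48 to 72 h the direction turned, with 6 higher (SPTLC2, CERS2, CERS5, UGCG, SGMS2 and SPHK1) and 1 lower (SPTLC3), against 17.9% and 17.9%. These were 3 and 1 of 8 genes tested with factors per gene, and from 24 to 48 h 0 and 3. The call of CERS2 from 48 to 72 h was lost with upper quartile scaling, library size only or no filter (adjusted p = 0.0720, 0.188 and 0.0552). It was lost, too, when replicate 3 at 48 h (adjusted p = 0.0573) or replicate 1 at 72 h (adjusted p = 0.0506) was left out. These comparisons share their libraries with those against the control.

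**Figure D2:**
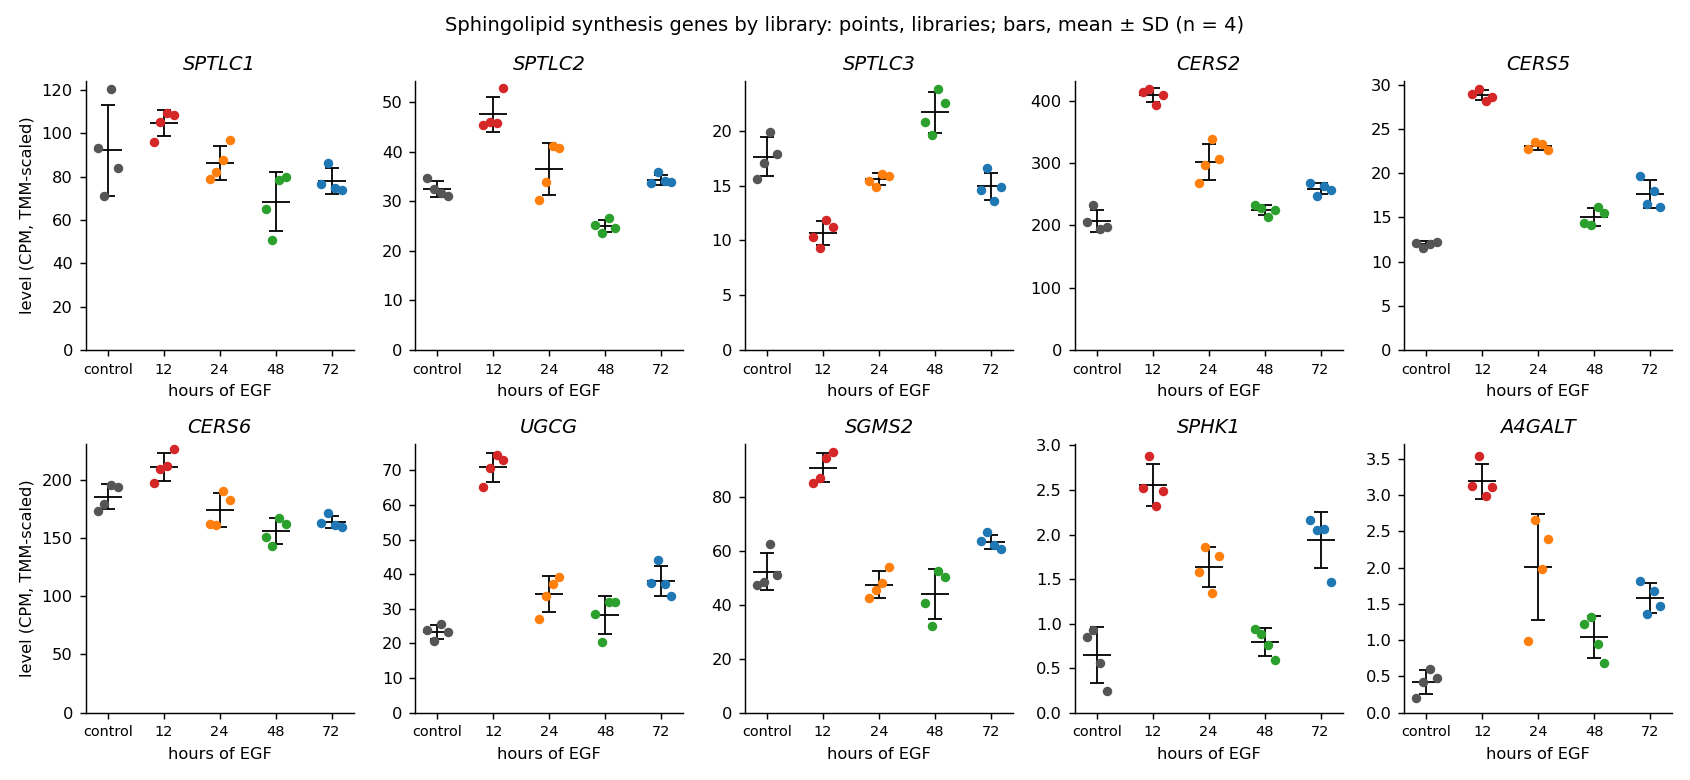
CPM after TMM scaling (y axis, from 0) of the 10 genes in the untreated control and at the 4 times after EGF (x axis, hours); points are libraries and bars mean ± SD (n = 4). UGCG lies between 65.1 and 74.5 CPM at 12 h, above all other libraries, while SPTLC3 has its lowest values at 12 h and its highest at 48 h.

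SPTLC1 encodes the subunit shared by all forms of serine palmitoyltransferase, the first and rate-limiting enzyme of the pathway. Its level was 92.98, 71.1, 121 and 84.01 CPM in the 4 control libraries, 96.2, 105, 109 and 109 at 12 h and 78.9, 82.3, 87.7 and 96.9 at 24 h. It was 65.1, 50.6, 78.3 and 79.8 at 48 h and 76.7, 86.5, 74.6 and 74.02 at 72 h. The control libraries overlapped with those of every EGF group, and control replicate 3 held the highest value of all 20. Only the difference at 48 h passed the test (log2 fold change -0.43 ± 0.13 SE, edgeR adjusted p = 0.0118), with 2 of 4 libraries below every control. Without control replicate 3 the difference at 48 h was -0.27 (adjusted p = 0.0705) and that at 12 h 0.35 (adjusted p = 0.0138) in place of 0.19, and without control replicate 2 that at 72 h was -0.35 (adjusted p = 0.0227) in place of -0.24. With only the 8 libraries compared, or with factors per gene, the call at 48 h was also lost. SPTLC1 was called higher at 12 h with factors per gene (0.31, adjusted p = 0.00972), and with library size only it was called lower at 72 h (-0.32, adjusted p = 0.0444).

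SPTLC2 encodes the main catalytic partner, which gives the common sphingoid bases. It stood at 34.6, 32.5, 31.7 and 31.1 CPM in the control, 45.4, 46.03, 45.7 and 52.7 at 12 h and 25.3, 23.7, 26.5 and 24.6 at 48 h. All 4 libraries lay above every control at 12 h and all 4 below at 48 h, and 1 library, EGF 12 h replicate 4, stood apart from the other three of its group. The level was 1.46-fold the control at 12 h (log2 0.55 ± 0.083, adjusted p = 3.13e-06) and 0.771-fold at 48 h (log2 -0.37 ± 0.085, adjusted p = 0.000872). At 24 h (36.5 ± 5.32 CPM, SD, n = 4) and at 72 h (34.3 ± 1.03) it did not pass the test, with log2 differences of 0.17 and 0.081. Without EGF 24 h replicate 1, the difference at 24 h was 0.25 and passed (adjusted p = 0.00840).

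SPTLC3 encodes the alternative catalytic subunit, known for a wider choice of acyl-CoA substrates. It stood at 15.6, 17.1, 19.9 and 17.9 CPM in the control, 10.3, 9.32, 11.8 and 11.2 at 12 h and 20.8, 19.6, 23.8 and 22.6 at 48 h. All 4 libraries at 12 h lay below every control, and 3 of 4 at 48 h lay above. SPTLC3 fell to 0.605-fold of the control at 12 h (log2 -0.73 ± 0.095, adjusted p = 3.43e-07) and was 1.23-fold at 48 h (log2 0.30 ± 0.091, adjusted p = 0.00909), a call that was lost with factors per gene (0.23, adjusted p = 0.276). It rose from 12 to 24 h (log2 0.55, adjusted p = 4.84e-05) and from 24 to 48 h (log2 0.48, adjusted p = 0.000148; 0.23 and adjusted p = 0.254 with factors per gene), and fell from 48 to 72 h (log2 -0.54, adjusted p = 6.53e-05). At 72 h it differed by -0.24 from the control on the log2 scale (adjusted p = 0.0272), with 3 of 4 libraries below every control. That call was lost without control replicate 3 or 4 or EGF 72 h replicate 1, 3 or 4 (adjusted p = 0.0523 to 0.108). At 24 h the difference of -0.18 did not pass (adjusted p = 0.0999), but without control replicate 1 it was -0.23 (adjusted p = 0.0428).

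The opposite courses of SPTLC2 and SPTLC3 show in their ratio within a library, which does not depend on library scaling. A ratio does not remove factors that differ between genes. None of the ratios given here was recomputed with the factors per gene of the deposited normalized values. SPTLC3 counts were 0.452, 0.526, 0.630 and 0.577 times those of SPTLC2 in the control, 0.227, 0.203, 0.259 and 0.213 times at 12 h, and 0.823 to 0.917 times at 48 h. The groups at 12 h and 48 h lay wholly below and wholly above the control. At 12 h this followed from the levels, since all 4 libraries of each gene lay apart from every control, in opposite directions. At 48 h that held for SPTLC2 and for 3 of 4 libraries of SPTLC3. The ratio tests at these times are thus no support apart from the calls above. The log2 ratio differed from the control by -1.27 at 12 h and by 0.68 at 48 h (exact permutation test, two-sided, p = 0.0286 and adjusted p = 0.0381 over 12 tests for each, the smallest p that 4 against 4 libraries allow). At 24 h and 72 h it differed by -0.33 and -0.32, with 3 of 4 libraries below every control (exact permutation test, adjusted p = 0.0571 for both). Per kb of exon, SPTLC2 was at 3.55 ± 0.168 and SPTLC3 at 2.07 ± 0.211 CPM per kb in the control (SD, n = 4), 5.19 ± 0.386 and 1.25 ± 0.129 at 12 h, and 2.74 ± 0.131 and 2.55 ± 0.219 at 48 h. The 2 alternative subunits were thus nearest to each other at 48 h.

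**Figure D3:**
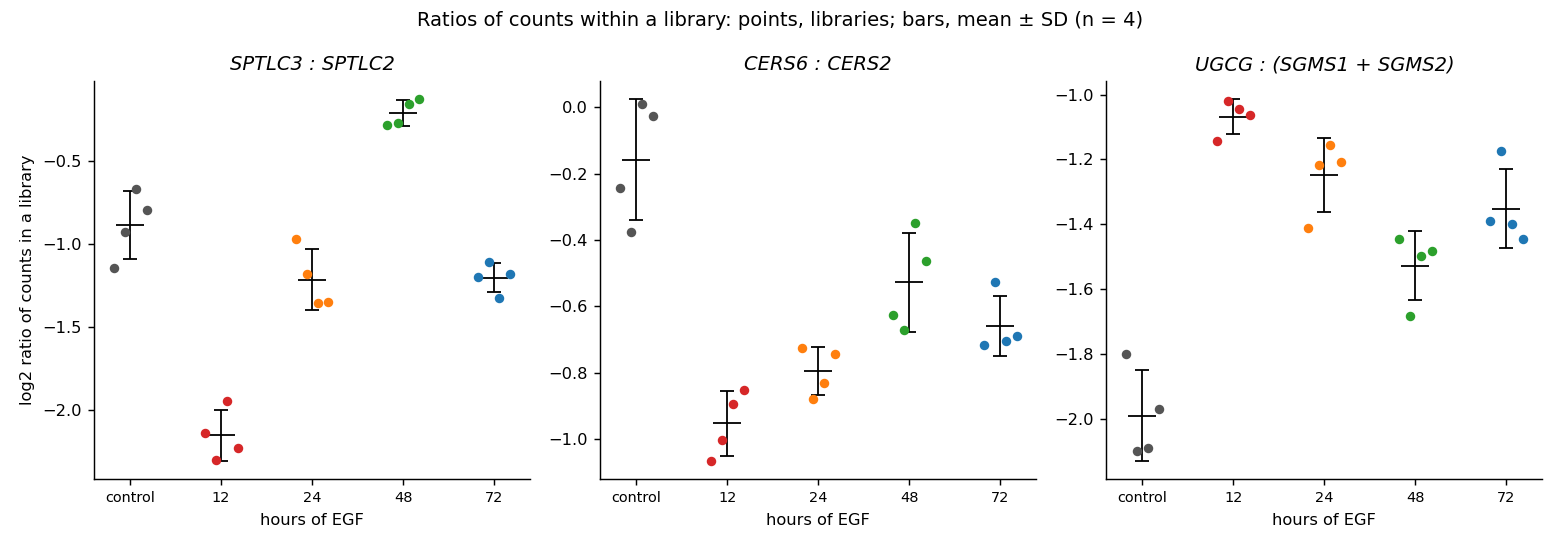
Log2 ratio of counts within a library (y axis) for SPTLC3 to SPTLC2, CERS6 to CERS2, and UGCG to the sum of SGMS1 and SGMS2 in the untreated control and at the 4 times after EGF (x axis, hours); points are libraries and bars mean ± SD (n = 4). The SPTLC3 to SPTLC2 ratio is lowest at 12 h (mean -2.15) and highest at 48 h (-0.21), and the UGCG ratio lies above the control at all 4 times.

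CERS2 makes ceramides with very long acyl chains and was the most abundant of the 3 ceramide synthases. Its 4 control libraries held 205, 233, 194 and 197 CPM. After EGF it stood at 414, 419, 393 and 409 CPM at 12 h and 268, 296, 338 and 306 at 24 h, and then at 232, 228, 213 and 224 at 48 h and 268, 247, 263 and 257 at 72 h. The libraries at 12, 24 and 72 h lay above all controls, and those at 48 h overlapped with the controls. CERS2 was 1.97-fold at 12 h (log2 0.98 ± 0.068, adjusted p = 6.78e-12), 1.46-fold at 24 h (adjusted p = 2.58e-07) and 1.25-fold at 72 h (adjusted p = 0.000247). At 48 h it was 0.11 on the log2 scale and did not pass (adjusted p = 0.173), while it passed at 0.17 without control replicate 2 (adjusted p = 0.0316). CERS2 was called lower at 48 h with factors per gene (-0.37, adjusted p = 0.0400), and the value of 0.14 at 72 h was no longer past the threshold (adjusted p = 0.394).

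CERS5, a synthase of ceramides with palmitoyl chains, was higher at all 4 times. It stood at 12.2, 11.6, 11.95 and 12.3 CPM in the control, 28.995, 29.5, 28.2 and 28.6 at 12 h and 22.7, 23.6, 23.3 and 22.6 at 24 h. Later it stood at 14.4, 14.1, 16.2 and 15.5 (48 h) and 19.7, 16.5, 18.04 and 16.2 (72 h). Every EGF library lay above every control. The rise was 2.41-fold at 12 h (log2 1.27 ± 0.074, adjusted p = 3.25e-13) and 1.92-fold at 24 h (adjusted p = 1.28e-10), and smaller at 48 h (1.26-fold, adjusted p = 0.000888) and at 72 h (1.47-fold, adjusted p = 7.33e-07). All neighbours in the order of the 5 groups differed, from the control through 48, 72 and 24 h to 12 h. That order was read from the same libraries. The weakest step was that between 48 and 72 h (edgeR adjusted p = 0.0188). It was lost without EGF 48 h replicate 1 or 2 or EGF 72 h replicate 1. Library size only, no filter beyond 1 count, factors per gene and only the 8 libraries compared lost it too (adjusted p = 0.172, 0.102, 0.121 and 0.0640). The step between 24 and 72 h was lost with factors per gene (adjusted p = 0.135). With factors per gene the change at 48 h was -0.010 and that at 72 h 0.34 (adjusted p = 0.0849).

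CERS6, which prefers the same chain lengths as CERS5, moved little. It stood at 173, 179.5, 196 and 194 CPM in the control, 198, 209, 211 and 227 at 12 h, 151, 143, 167 and 162 at 48 h and 163, 172, 161 and 159 at 72 h. The 4 libraries at 12 h lay above the controls and those at 48 and 72 h below them, though by small steps. The log2 fold change was 0.19 ± 0.068 at 12 h (adjusted p = 0.0186), -0.25 ± 0.069 at 48 h (adjusted p = 0.0043) and -0.18 ± 0.069 at 72 h (adjusted p = 0.0264). The value at 12 h was -0.096 with library size as the only scaling and 0.025 with upper quartile scaling (adjusted p = 0.726), settings which moved the median of all genes by -0.28 and -0.16. It also missed the threshold without control replicate 1 or EGF 12 h replicate 4 (adjusted p = 0.0580 and 0.0689) and with factors per gene (adjusted p = 0.386). The call at 72 h was lost without control replicate 3 or 4 or EGF 72 h replicate 1, 3 or 4 (adjusted p = 0.0617 to 0.0748).

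Within a library, CERS6 counts were 0.845, 0.771, 1.01 and 0.983 times those of CERS2 in the control and 0.478, 0.499, 0.538 and 0.554 times at 12 h. The log2 ratio differed from the control by -0.80 at 12 h, -0.64 at 24 h and -0.50 at 72 h, with all 4 libraries below every control each time (exact permutation test, adjusted p = 0.0381 for each). At 48 h the difference was -0.37, with 3 of 4 below (exact permutation test, adjusted p = 0.0571). The level of CERS6 itself was never more than 0.25 from the control on the log2 scale. Opposite-strand exons overlap both genes, and a ratio does not remove their reads. Per kb of exon, CERS2 was at 44.6 ± 3.79, CERS6 at 25.6 ± 1.51 and CERS5 at 1.78 ± 0.0454 CPM per kb in the control (SD, n = 4), and 88.01 ± 2.41, 29.2 ± 1.66 and 4.27 ± 0.0848 at 12 h.

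**Figure D4:**
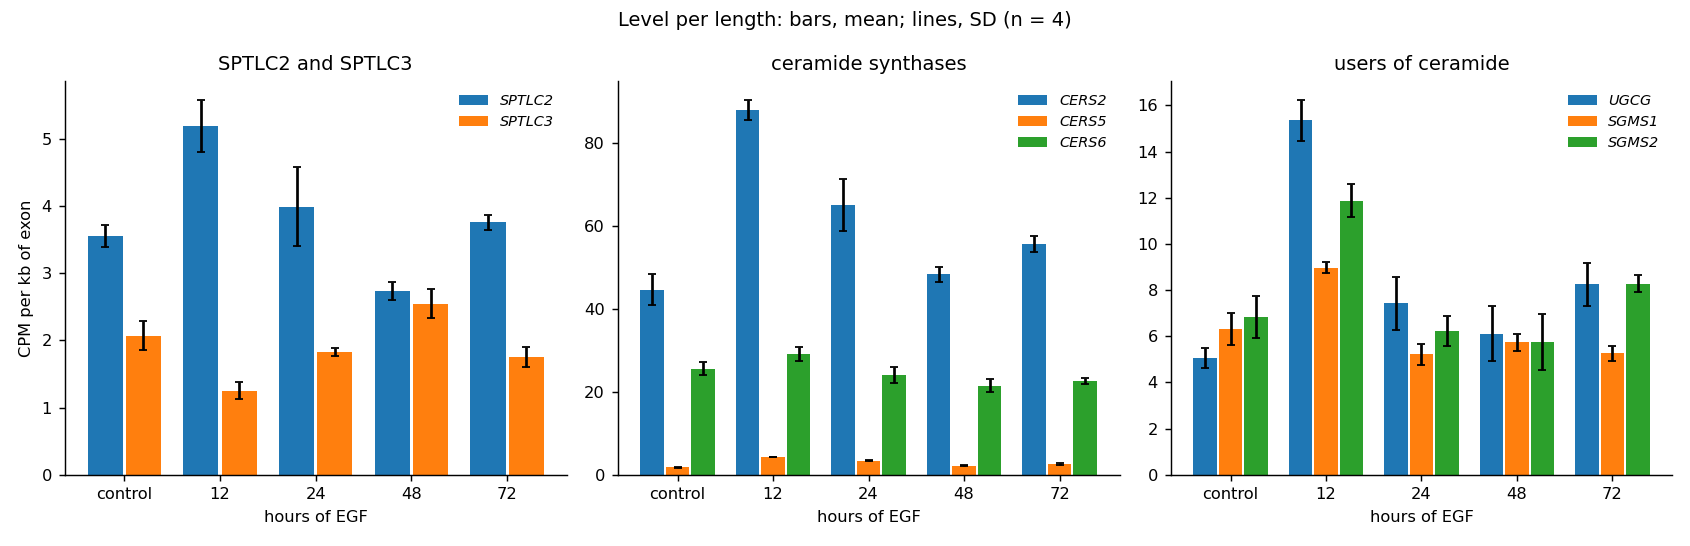
CPM per kb of exon (y axis, from 0) in the untreated control and at the 4 times after EGF (x axis, hours), for SPTLC2 and SPTLC3, the 3 ceramide synthases, and UGCG with the sphingomyelin synthases SGMS1 and SGMS2; bars are means and lines SD (n = 4). CERS2 is the tallest of the ceramide synthases at every time, and UGCG rises above SGMS2 at 12 h (15.4 against 11.9 CPM per kb).

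UGCG, glucosylceramide synthase, commits ceramide to glycosphingolipids. It stood at 23.8, 20.6, 25.5 and 23.3 CPM in the control, 65.1, 70.8, 74.5 and 73.02 at 12 h and 27.1, 33.8, 37.1 and 39.3 at 24 h. It then stood at 28.5, 20.4, 32.1 and 31.9 at 48 h and 37.4, 44.1, 37.3 and 33.8 at 72 h. The 4 libraries at 12 h lay above all 16 others, and at 48 h EGF replicate 2 lay below the lowest control. UGCG was 3.04-fold at 12 h (log2 1.60 ± 0.12, adjusted p = 4.31e-11), 1.47-fold at 24 h (adjusted p = 0.000446) and 1.64-fold at 72 h (adjusted p = 2.51e-05). The change from 12 to 24 h was -1.05 on the log2 scale (adjusted p = 1.66e-07) and the return from 48 to 72 h 0.43 (adjusted p = 0.00739; 0.179 with factors per gene). At 48 h UGCG was 0.28 above the control and did not pass (adjusted p = 0.0692), but it passed at 0.41 without EGF 48 h replicate 2 (adjusted p = 0.00368). In the order 12, 72, 24, 48 h and control, read from the same libraries, 12 and 72 h differed between neighbours (adjusted p = 6.48e-07). The step from 24 to 48 h did not pass (-0.28, adjusted p = 0.0605), but it did without EGF 24 h replicate 1 (adjusted p = 0.0120) or EGF 48 h replicate 3 or 4 (adjusted p = 0.0300 and 0.0347).

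SGMS2, the sphingomyelin synthase of the plasma membrane, shared the peak at 12 h but not the level at 24 h. Its control libraries held 47.3, 48.5, 62.4 and 50.9 CPM, those at 12 h 85.2, 87.1, 94.3 and 96.4 and those at 24 h 42.4, 45.5, 47.9 and 54.03. They held 40.6, 32.2, 52.6 and 50.2 at 48 h and 63.6, 66.9, 61.99 and 60.5 at 72 h. All 4 libraries at 12 h lay above the other 16, whereas those at 24 and 48 h overlapped with the control. SGMS2 was 1.73-fold at 12 h (log2 0.79 ± 0.11, adjusted p = 1.41e-06) and fell by 24 h (log2 -0.93 from 12 h, adjusted p = 4.44e-07). The difference at 72 h was 0.27 ± 0.11 (adjusted p = 0.0417) with 2 of 4 libraries above every control. That call was lost without control replicate 1, 2 or 4 or EGF 72 h replicate 1, 2 or 3 (adjusted p = 0.0574 to 0.123). It was also lost with library size only or no filter beyond 1 count (edgeR adjusted p = 0.136 and 0.0642). At 48 h the difference of -0.25 did not pass (adjusted p = 0.0796), but it did without EGF 48 h replicate 3 (-0.35, adjusted p = 0.0180) or replicate 4 (-0.32, adjusted p = 0.0384). From 48 to 72 h SGMS2 rose by 0.52 on the log2 scale (adjusted p = 0.000985).

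UGCG and the sphingomyelin synthases draw on the same ceramide. UGCG counts were 0.287, 0.233, 0.235 and 0.255 times the sum of SGMS1 and SGMS2 in the control, 0.452, 0.493, 0.485 and 0.478 times at 12 h, and 0.367, 0.311, 0.354 and 0.358 times at 48 h. All EGF libraries at all 4 times lay above all controls. At 12, 24, 48 and 72 h the log2 ratio was higher than in the control by 0.92, 0.74, 0.46 and 0.64 (exact permutation test, adjusted p = 0.0381 for each). Each p is the smallest that 4 against 4 libraries allow, so passing after adjustment depends on the other ratio tests. The 4 times also share the same control libraries and are not separate evidence. Per kb of exon, UGCG rose from 5.05 ± 0.442 CPM per kb in the control to 15.4 ± 0.894 at 12 h, SGMS2 from 6.85 ± 0.905 to 11.9 ± 0.715, and SGMS1, the Golgi enzyme, from 6.31 ± 0.678 to 8.98 ± 0.245 (SD, n = 4). SGMS1 by itself was higher than in the control at 12 h (log2 0.51 ± 0.079, adjusted p = 4.19e-06) and lower at 24 h and 72 h (-0.27 and -0.26, adjusted p = 0.00512 and 0.00625), the last 2 of which were lost with factors per gene (-0.18 and -0.062, adjusted p = 0.302 and 0.738). The ratio was higher also at 48 h, when UGCG by itself did not pass the test.

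SPHK1, sphingosine kinase, was among the 2 rarest transcripts of the 10, with 5 to 22 counts per control library. It passed the filter only through EGF libraries, so its changes against the control are given as a description. It stood at 0.854, 0.925, 0.555 and 0.240 CPM in the control, 2.53, 2.89, 2.32 and 2.49 at 12 h and 1.58, 1.86, 1.35 and 1.76 at 24 h. It stood at 0.942, 0.880, 0.760 and 0.589 CPM at 48 h and 2.16, 2.05, 2.07 and 1.47 at 72 h. The libraries at 12, 24 and 72 h lay above all controls and above all libraries at 48 h. SPHK1 was 3.93-fold at 12 h (log2 1.97 ± 0.25, adjusted p = 2.80e-07), 2.53-fold at 24 h (adjusted p = 0.000135) and 3.00-fold at 72 h (adjusted p = 1.26e-05). At 48 h it was 0.28 ± 0.28 on the log2 scale and did not pass (adjusted p = 0.437). The rise from 48 to 72 h was 2.46-fold (adjusted p = 0.000299), larger than that of any other of the 10 genes. The decline from 12 to 24 h (-0.64, adjusted p = 0.0243) was lost with upper quartile or library size scaling, and without EGF 12 h replicate 2 or EGF 24 h replicate 1 or 3. The levels at 12 and 72 h did not differ past the threshold (adjusted p = 0.134).

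A4GALT, globotriaosylceramide synthase, had the largest fold change of the 10 genes and the lowest level in the control, with 4 to 14 counts per control library. Like SPHK1 it passed the filter only through EGF libraries, so its changes against the control are given as a description. It stood at 0.201, 0.420, 0.598 and 0.481 CPM in the control, 3.13, 3.54, 2.98 and 3.11 at 12 h and 0.989, 2.66, 1.99 and 2.39 at 24 h. It stood at 1.22, 1.32, 0.950 and 0.680 CPM at 48 h and 1.81, 1.37, 1.68 and 1.47 at 72 h. Every EGF library lay above every control, and at 24 h replicate 1 lay below the other three by a wide gap, within the range of the libraries at 48 h. Over all genes tested that library also stood apart, at 12.5 on the first principal component of log2 CPM. Replicates 2, 3 and 4 at 24 h stood at 30.9, 34.0 and 34.8. Replicate 1 was the lowest at 24 h for SPTLC1, SPTLC2, CERS2, UGCG and SGMS2 too, but not for SPTLC3, CERS5, CERS6 and SPHK1. A4GALT was 7.33-fold at 12 h (log2 2.87 ± 0.29, adjusted p = 4.94e-09), 4.60-fold at 24 h (adjusted p = 1.06e-06), 2.38-fold at 48 h (adjusted p = 0.00229) and 3.66-fold at 72 h (adjusted p = 1.15e-05). From 12 to 24 h it fell by 0.67 on the log2 scale (adjusted p = 0.0231), which was lost without EGF 12 h replicate 2 or EGF 24 h replicate 1 and with upper quartile or library size scaling. From 24 to 48 h it fell by 0.95 (adjusted p = 0.00493), with 2 of 4 libraries below those at 24 h. The rise from 48 to 72 h (0.62) did not pass (adjusted p = 0.0791), although all 4 libraries at 72 h lay above those at 48 h.

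Across the 20 libraries, SPTLC3 was negatively correlated with each of the other 9 genes (Pearson's r of log2 CPM from -0.86 with SPTLC2 to -0.48 with SPTLC1). All 36 pairs among the other 9 genes had a positive r, from 0.22 for SPTLC1 and A4GALT to 0.94 for CERS2 and CERS5. These points share the group structure and the library scaling, and replicates of a group are not independent of it, so r is given as a description. Group means of log2 CPM spanned 2.71 for A4GALT, 1.96 for SPHK1 and 1.60 for UGCG, the widest ranges of the 10. Of all genes tested, those with a course most like A4GALT were KLF5, SOX9 and SLC38A2 (r = 0.97, 0.96 and 0.95 over 20 libraries). Those most like SPHK1 were ZNF185, KRT81 and PHLDB3 (r = 0.92 for each), and those most like UGCG were PDLIM5, KDSR and YRDC (r = 0.98 for each). KDSR encodes the reductase of the second step of sphingoid base synthesis.

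The rest of the pathway was followed through 63 other sphingolipid genes in 7 lists, of which 57 passed the filter. Of these, 19 were higher and 22 lower at 12 h, 13 and 24 at 24 h, 8 and 25 at 48 h, and 15 and 22 at 72 h, with median log2 fold changes of -0.13, -0.15, -0.16 and -0.071. Over all genes tested, 32.9% were higher and 36.5% lower at 12 h, 29.2% and 29.6% at 24 h, 24.0% and 21.8% at 48 h, and 30.6% and 31.0% at 72 h, against which the counts of each list below stand. CERS3, ACER1, S1PR4, B4GALNT1, GAL3ST1 and GALC did not pass the filter, with at most 7 counts in any library. Among the 8 partners of serine palmitoyltransferase and de novo enzymes, 2 were higher and 4 lower at 12 h and 0 and 5 at 48 h. Among those with a mean of at least 1 CPM, KDSR was the one with a change of at least 2-fold, from 59.5 ± 4.96 CPM in the control to 151 ± 6.05 at 12 h (SD, n = 4; log2 1.34 ± 0.088, adjusted p = 2.59e-12), and it was at 63.3 ± 5.65 CPM at 48 h. DEGS1, the desaturase that completes ceramide, rose at 12, 24 and 72 h (log2 0.87 ± 0.08 at 12 h, adjusted p = 1.06e-09). ORMDL3, an inhibitor of serine palmitoyltransferase, was lower at all 4 times (log2 -0.77 ± 0.11 at 24 h, adjusted p = 2.46e-06). Its call at 12 h (-0.26, adjusted p = 0.0344) was lost without control replicate 1 or 4 or EGF 12 h replicate 1, 3 or 4 (adjusted p = 0.0519 to 0.127). DEGS1, ORMDL3 and, further on, B4GALT5 changed by less than 2-fold and were chosen for mention after their values were seen.

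Of the 2 other ceramide synthases tested, CERS1 was higher and CERS4 lower at all 4 times. CERS1 went from 4.76 ± 1.26 to 9.77 ± 0.915 CPM at 12 h (log2 1.04 ± 0.15) and CERS4 from 12.7 ± 2.26 to 6.03 ± 1.09 (log2 -1.08 ± 0.15; adjusted p = 1.77e-06 and 5.52e-07). On the same strand, GDF1 shares 67.1% of the exon sequence of CERS1, so its reads may be counted with CERS1 or left out, and the value of CERS1 is uncertain. Of the 7 genes of sphingomyelin synthesis, ceramide transport and sphingomyelinases, 3 were higher and 2 lower at 12 h and 1 and 5 at 24 h. SMPD1, the acid sphingomyelinase of lysosomes, fell from 11.3 ± 2.69 to 4.27 ± 0.642 CPM at 12 h (log2 -1.40 ± 0.15, adjusted p = 1.52e-08) and stood at 12.2 ± 0.762 at 72 h. Of the 5 ceramidases and ceramide kinase tested, 1 was higher and 2 lower at 12 h. Acid ceramidase ASAH1, which frees sphingosine, was lower at all 4 times, at 139.6 ± 13.2 CPM in the control and 65.95 ± 4.43 at 24 h (log2 -1.08 ± 0.079, adjusted p = 3.18e-11).

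Of the 10 genes of sphingosine 1-phosphate breakdown, export and receptors tested, 4 were higher and 3 lower at 12 h and 4 and 4 at 72 h. The receptor S1PR3 fell at all 4 times, from 64.2 ± 1.71 CPM in the control to 17.02 ± 1.33 at 72 h (log2 -1.91 ± 0.076, adjusted p = 3.40e-16), while the phosphatase SGPP2 rose from 6.76 ± 0.570 to 16.2 ± 0.884 at 12 h (log2 1.27 ± 0.10, adjusted p = 5.73e-11) and did not pass at the other times (0.27 and adjusted p = 0.0408 at 24 h without control replicate 1). At 72 h the kinase SPHK1 was 3.00-fold of the control and S1PR3 was 0.266-fold of it.

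Of the 14 genes of glycosphingolipid synthesis and transfer tested, 5 were higher and 6 lower at 12 h, 6 and 4 at 24 h, 1 and 6 at 48 h, and 4 and 5 at 72 h. B4GALT6, which makes the lactosylceramide that A4GALT uses, rose from 7.66 ± 1.63 to 22.2 ± 1.28 CPM at 24 h (log2 1.53 ± 0.15, adjusted p = 6.47e-09), while B4GALT5, which catalyses the same step, was lower at all 4 times (log2 -0.90 ± 0.066 at 72 h, adjusted p = 3.13e-11). The call of B4GALT6 at 48 h (0.42, adjusted p = 0.0315) was lost without any of control replicates 1, 2 and 4 or EGF 48 h replicates 1, 3 and 4. ST3GAL5, which turns lactosylceramide into the simplest ganglioside, fell from 7.94 ± 0.310 to 3.18 ± 0.360 CPM at 12 h (log2 -1.32 ± 0.14, adjusted p = 6.87e-09) and was lower at all 4 times. ST8SIA1, the next sialyltransferase, fell from 33.7 ± 4.75 to 7.26 ± 0.634 CPM (log2 -2.21 ± 0.12, adjusted p = 4.07e-14) and was likewise lower at every time, though at 48 h not with factors per gene (-0.31, adjusted p = 0.0962). B3GALT4, a ganglioside galactosyltransferase, was at 1.46 ± 0.426 CPM in the control and 0.463 ± 0.122 at 12 h (log2 -1.64 ± 0.29, adjusted p = 2.50e-05), and ST3GAL1, a sialyltransferase that acts mostly on glycoproteins, rose from 19.4 ± 2.29 to 50.9 ± 1.94 CPM (log2 1.39 ± 0.092, adjusted p = 3.07e-12). At 12 h the transcripts around lactosylceramide differed in direction, A4GALT being higher and ST3GAL5 and ST8SIA1 lower than in the control.

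Of the 11 lysosomal breakdown genes tested, 3 were higher and 4 lower at 12 h, 2 and 6 at 24 h, 2 and 4 at 48 h, and 1 and 5 at 72 h.

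**Figure D5:**
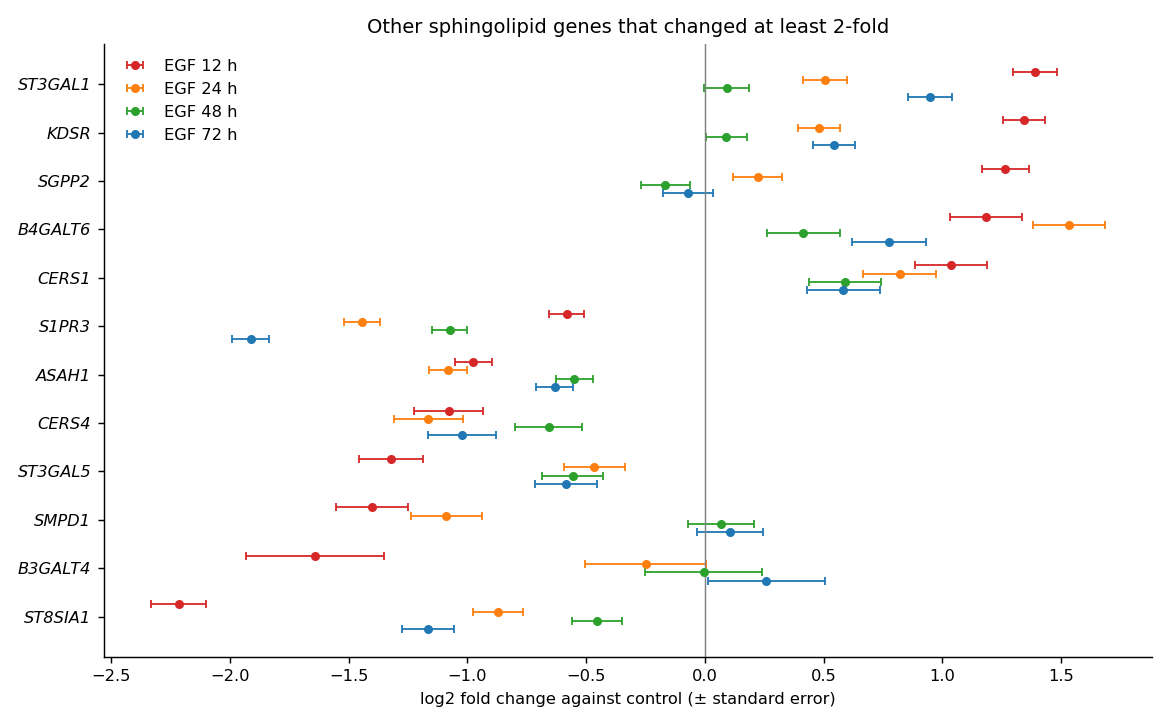
Log2 fold change against the untreated control (x axis) of 12 other sphingolipid genes that changed at least 2-fold at 1 time or more (y axis); colors mark the 4 times after EGF, points are edgeR estimates and bars ± 1 standard error. ST8SIA1 lies farthest below 0 at 12 h (-2.21) and S1PR3 at 72 h (-1.91), and B4GALT6 is farthest above 0 at 24 h (1.53).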

How the data were processed

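RNA of MDA-MB-468 cells was sequenced in 20 libraries (Corall mRNA kit, 75 base single reads), 4 in each of 5 groups. The authors deposited, per gene and library, an estimated count in whole numbers beside a normalized score, and for each pair of groups fold changes and p-values, which were not used. The submitters' processing notes name hg38 and DESeq2, while the aligner, annotation, strand setting and use of UMIs are not given in the sources used here. The deposited normalized score equals the count divided by a factor that differs between genes and libraries, and only that factor was used, in an alternative.

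Groups came from the sample labels. The counts were analyzed in R 4.3.3 with edgeR 4.0.16 (limma 3.58.1), after filterByExpr and TMM scaling. A model with a mean per group was fitted to all 20 libraries, and edgeR's robust quasi-likelihood test was adjusted by Benjamini-Hochberg over 16522 genes (threshold 0.05). Alternatives, among them DESeq2 1.42.0, are named in the closing section. Ratios of counts within a library, with 0.5 added to each count, were tested by exact permutation. Lengths and positions came from GENCODE 29 and start site windows from RefSeq. On simulated data for 12 h against control with 188 genes changed 2-fold or to 0.5-fold among 16060, 145 changed and 8 unchanged genes were called. In the data 32.9% of genes were higher and 36.5% lower at 12 h, so the simulation does not cover scaling under changes that wide.

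Depth was 15611961 to 25856953 counts per library, so that genes under about 1 CPM rest on few counts. Variance between replicates was 3.59 to 60.1 times sampling noise over 30 pairs, so every library counted as its own sample. The label numbers were not used as pairs. Of 40 same-number pairs, 5 had an r over 0.1, and the median r was 0.0092 against -0.0042 for other pairs. The highest, 0.35, was between control and EGF 48 h replicate 3, so pairing by number is not excluded. The genes and lists were chosen with earlier results of these data known. Named among the 63 other genes were those with an adjusted p under 0.05, a change of at least 2-fold, no overlap with the control at 1 time or more and a mean of at least 1 CPM (1 gene that met this is not reported here), and for the 3 genes with the widest range the 3 genes with the highest r.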

Additional observations from a re-analysis of the deposited data

Results flagged for a closer look

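Among 50 groups of 4 libraries (10 genes in 5 groups), a library far from the other three of its group was found 2 times, and chance gives about 1 in 20. SPTLC2 was at 52.7 CPM in EGF 12 h replicate 4, with 45.4 to 46.0 CPM in the other three. SPHK1 was at 1.47 CPM in EGF 72 h replicate 4, with 2.05 to 2.16 CPM in the other three.

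Genes past the threshold in opposite directions at different times were listed with the test between those times. SPTLC2 was higher than the control at 12 h and lower at 48 h, and differed by -0.92 on the log2 scale between these times (48 against 12 h, edgeR adjusted p = 1.16e-09, all 4 libraries lower). SPTLC3 was lower at 12 h and higher at 48 h, with a difference of 1.02 (adjusted p = 1.28e-09, all 4 higher), and again lower at 72 h, with a difference of -0.54 from 48 h (adjusted p = 6.53e-05, all 4 lower). CERS6 was higher at 12 h and lower at 48 and 72 h, with differences of -0.44 (adjusted p = 4.97e-06) and -0.37 (adjusted p = 5.66e-05) from 12 h, all 4 libraries lower each time. With library size as the only scaling these were -0.14 and -0.16 and missed the threshold (adjusted p = 0.0784 and 0.0539).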

How the results depend on the processing

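Alternatives were DESeq2's size factors or upper quartile in place of TMM, library size only, other filters, factors per gene from the deposited normalized values, a prior count of 2, DESeq2's Wald test, only the 8 libraries compared, the replicate block and leaving out each library. Over the 4 times against the control and the 3 steps between successive times there were 672 values of the 10 genes under all but the last, of which 612 kept direction and side of the threshold, 38 lost and 14 gained a call and 8 changed direction, 2 of them called before (CERS6 at 12 h and CERS5 at 48 h) and CERS2 at 48 h called after. Leaving out a library gave 560 values, of which 510 kept both, 34 lost and 14 gained a call and 2 changed direction. The cause was not tested in any of these.

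The count of genes called at 24 h was 5 and became 8 with library size only and 3 with at least 10 counts in every library or factors per gene. At 72 h it was 8 and became 5 with no filter, 4 with at least 10 counts and 3 with factors per gene. With factors per gene it was 3 for 48 h and for 48 against 24 h, and 4 for 72 against 48 h, and with at least 10 counts it was 4 for 48 against 24 h. With at least 10 counts in every library and with factors per gene, 8 of the 10 genes were tested. Leaving out a library gave 5 to 8 at 72 h.

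With library size only, which moved the median gene by -0.28 at 12 h, -0.14 at 24 h and 0.15 for 48 against 24 h, the sign turned for SPTLC1 (-0.097) and CERS6 (-0.096) at 12 h, B3GALT4 at 48 h (0.0035), SGMS2 for 48 against 24 h (0.048), CERS6 for 72 against 48 h (-0.017) and SPTLC3 for 72 against 24 h (0.0034). With upper quartile scaling it turned for B3GALT4 at 48 h (0.014). With factors per gene it turned for SPTLC1 at 24 h (0.046), CERS2 (-0.37), CERS5 (-0.010), SMPD1 (-0.066) and SGMS1 (0.066) at 48 h and SGMS2 for 48 against 24 h (0.041). The calls of ORMDL3 and B4GALT5 at 12 h were lost with no filter (-0.22 and -0.15, adjusted p = 0.177 and 0.127). Leaving out a library turned the sign of B3GALT4 at 48 h (range -0.17 to 0.20), SPTLC1 at 24 h (-0.20 to 0.066), DEGS1 at 48 h (-0.037 to 0.099), SMPD1 at 48 h (-0.056 to 0.22) and 72 h (-0.017 to 0.25) and SGMS2 for 48 against 24 h (-0.21 to 0.011), of which none was called.

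With the replicate block, the counts of genes called were within 1.5 times those without it (9, 5, 7 and 8 at 12, 24, 48 and 72 h), with calls added for SGMS2 at 48 h (-0.26, adjusted p = 0.0352) and for CERS6 and UGCG for 48 against 24 h (-0.16 and -0.28, adjusted p = 0.0326 and 0.0487), and 8 of 20 libraries correlated best with their own number. Over all genes, the block called 11577, 9868, 7829 and 10310 of 16522 at 12, 24, 48 and 72 h. Whether the label numbers pair the libraries was not settled. For the ratios 4 pairs are too few for a paired exact sign-flip test to pass. So the differences of -1.27 and 0.68 (SPTLC3 to SPTLC2), -0.80, -0.64 and -0.50 (CERS6 to CERS2) and 0.92, 0.74, 0.46 and 0.64 (UGCG to SGMS1 and SGMS2) could not pass. Nor can 3 against 4 libraries, where these ranged from -1.36 to -1.20 and 0.59 to 0.75, from -0.87 to -0.74, -0.71 to -0.58 and -0.57 to -0.45, and from 0.89 to 0.99, 0.71 to 0.81, 0.43 to 0.53 and 0.58 to 0.70. Depth limits A4GALT and SPHK1, which had at most 22 counts in any control library.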
